A study of Mus musculus with 2 samples.

Results

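The mouse T cell receptor alpha locus holds its variable genes (TRAV) in a long cluster upstream of the joining segments (TRAJ), and the genes described here stand at the far ends of that cluster. TRAV1 and TRAV2 were taken as the distal genes, since they lie at the 5′ end and farthest from TRAJ, and TRAV17, TRAV18, TRAV19 and TRAV21-DV12 as the proximal genes at the 3′ end. Their chains are all TRA chains whose V gene was called as one of these genes, a rule that uses gene names and no measured value, although the set was proposed with earlier results of these data known. Together these 6 of 89 TRAV genes gave 211 of 3782 TRA chains, of which 63 were distal and 148 proximal. All 6 genes had chains in the WT library, and 5 of them had chains in the Btla-/- library.

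TCR transcripts of thymic CD4 single positive T cells, enriched by negative selection with a kit for naive CD4 T cells, had been sequenced as single cells in 1 library from C57BL/6J WT mice and 1 library from mice of the strain C57BL/6-Btla KO. All donors were 8 to 12 weeks old. Btla encodes B and T lymphocyte attenuator (BTLA), a co-inhibitory receptor that naive T cells carry constitutively. The study asked how BTLA bears on CD5, another such receptor, and on self-tolerance. These libraries served to compare TCR repertoires between genotypes, and the paper reported no major difference but did not exclude subtle ones. The number of mice behind each library is not given in the sources used here, so each genotype was 1 sample, no test between genotypes was possible, and all intervals below cover counting error only. The libraries hold TCR transcripts alone, so neither the loss of Btla nor the CD4 single positive state could be checked from them.

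The WT library held 1862 TRA chains in 1704 cells and the Btla-/- library 1920 TRA chains in 1798 cells, with a median of 3 UMIs per TRA chain in both. Of the chains described here, 103 came from 102 WT cells and 108 from 108 Btla-/- cells. The libraries shared 30 cell barcodes, which carried 1 of these chains, and no barcode carried one in both libraries.

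A TRA gene is assembled in the thymus by joining a TRAV gene to a TRAJ segment, which deletes the DNA between them. Joining proceeds in rounds, and the first rounds are known to use TRAV genes near the TRAJ cluster with TRAJ segments at its 5′ end. A chain that fails can be replaced by joining a TRAV gene lying farther upstream to a TRAJ segment lying farther downstream. TRAJ segments are numbered against the direction of the locus, so that the highest numbers lie next to the TRAV cluster and the lowest next to the constant gene TRAC. TRAV21-DV12 carries a DV name because it can also be joined in the TCR delta chain.

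Joining acts at recombination signal sequences, each made of a heptamer and a nonamer with a spacer between them. The germline ends of the 6 TRAV genes are shown because they set where the CDR3, the loop that contacts peptide and MHC, begins and what the recombinase meets. Each line runs 5′ to 3′ on the + strand from the codon of the conserved cysteine, with the coding end and a spacer of 23 bases in lower case. Capitals mark the 7 bases directly behind the annotated gene end, the place of the heptamer, and the 9 bases that follow the spacer, the place of the nonamer. They were placed by these fixed distances and not recognised by their letters, so a true nonamer may begin a base earlier or later. All lie at the 3′ end of the gene's last exon and in the DNA directly behind it, in build GRCm38: TRAV1 at chr14:52428863-52428915, TRAV2 at chr14:52568036-52568090, TRAV17 at chr14:53807102-53807154, TRAV18 at chr14:53831818-53831866, TRAV19 at chr14:53845815-53845866 and TRAV21-DV12 at chr14:53876737-53876791.
TRAV1: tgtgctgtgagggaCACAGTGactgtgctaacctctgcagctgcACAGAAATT
TRAV2: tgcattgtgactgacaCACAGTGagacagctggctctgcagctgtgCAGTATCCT
TRAV17: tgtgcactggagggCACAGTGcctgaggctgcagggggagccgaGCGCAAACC
TRAV18: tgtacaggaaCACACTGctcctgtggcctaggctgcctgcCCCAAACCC
TRAV19: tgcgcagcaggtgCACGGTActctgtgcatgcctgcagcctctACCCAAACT
TRAV21-DV12: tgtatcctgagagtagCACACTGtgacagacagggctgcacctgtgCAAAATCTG
The heptamer CACAGTG followed the coding end of TRAV1, TRAV2 and TRAV17, and the other 3 genes had other letters there. Read at the same place on the + strand, it followed 91 of the 108 TRAV genes annotated as genes, or 84.3%, a count that misses a gene whose annotated end is a base off. The coding end was shortest in TRAV18, with 10 bases, and longest in TRAV2 and TRAV21-DV12, with 16 bases each.

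The segments most used by each group are shown next, with the part that codes for the CDR3 in capitals. TRAJ21 (chr14:54198790-54198846) and TRAJ12 (chr14:54206553-54206610) led the distal chains. TRAJ57 (chr14:54158505-54158569) and TRAJ58 (chr14:54157280-54157342), at the other end of the TRAJ cluster, led the proximal chains.
TRAJ21: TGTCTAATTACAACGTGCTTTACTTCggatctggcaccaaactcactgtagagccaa
TRAJ12: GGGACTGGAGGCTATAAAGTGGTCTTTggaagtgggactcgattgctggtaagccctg
TRAJ57: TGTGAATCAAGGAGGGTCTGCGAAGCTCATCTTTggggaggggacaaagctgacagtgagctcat
TRAJ58: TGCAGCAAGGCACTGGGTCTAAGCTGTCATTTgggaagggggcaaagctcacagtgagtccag
The CDR3-coding part had 26 bases in TRAJ21 and 27 in TRAJ12, against 34 in TRAJ57 and 32 in TRAJ58.

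The distal and the proximal genes joined nearly separate parts of the TRAJ cluster, in the same direction in both libraries. Distal chains had a median TRAJ number of 22.5 in WT and 21 in Btla-/-, whereas proximal chains had a median of 52 and 49. TRAJ1 to TRAJ30, the side of the cluster next to TRAC, took 16 of 20 distal chains in WT (80.0%, exact 95% interval 56.3 to 94.3) and 36 of 43 in Btla-/- (83.7%, 69.3 to 93.2). The same segments took 1 of 83 proximal chains in WT (1.20%, 0.0305 to 6.53) and 2 of 65 in Btla-/- (3.08%, 0.375 to 10.7). Distal thus exceeded proximal by 78.8 percentage points in WT (Newcombe 95% interval 56.6 to 90.8) and by 80.6 percentage points in Btla-/- (65.05 to 89.1). These intervals treat chains of a library as independent draws and say nothing of the spread between mice.

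**Figure D1:**
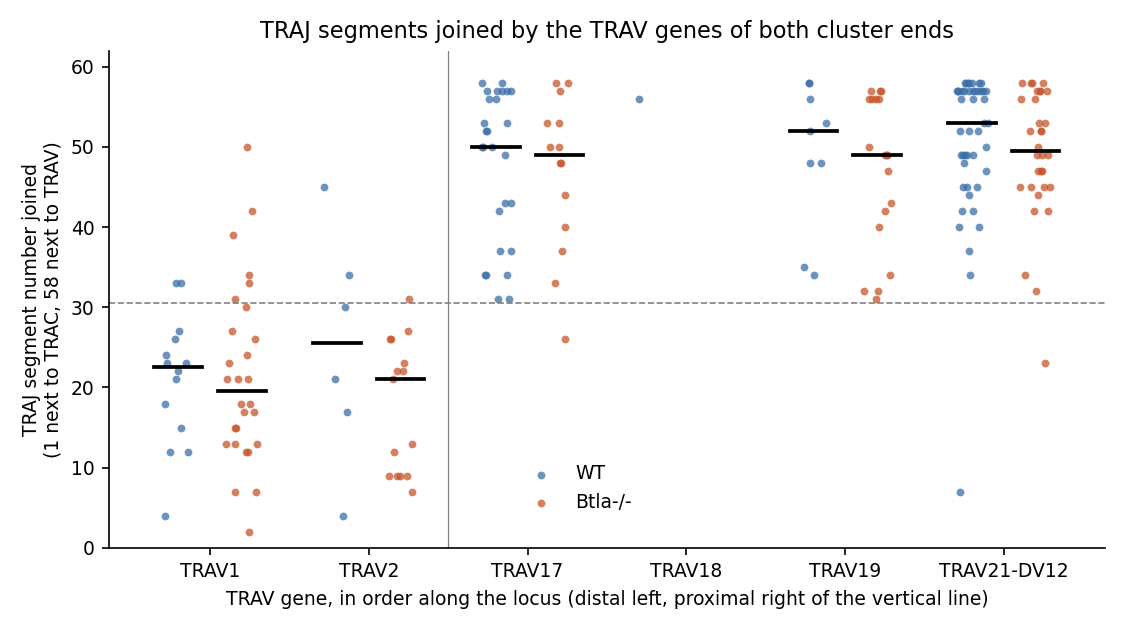
TRAJ number (vertical axis, 1 next to TRAC and 58 next to the TRAV cluster) of each TRA chain, by TRAV gene and library. Each point is 1 chain, spread sideways for legibility, black bars are medians of genes with more than 1 chain, and the dashed line separates TRAJ30 from TRAJ31. TRAV1 and TRAV2 chains lie mostly below the line, and 3 chains of the proximal genes do.

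TRAV1, the most distal TRAV gene, lies at chr14:52427928-52428876, 1728 kb from TRAJ58. Its 14 WT chains ran from TRAJ4 to TRAJ33 with a median of 22.5, and its 28 Btla-/- chains from TRAJ2 to TRAJ50 with a median of 19.5. TRAJ1 to TRAJ30 took 12 of the 14 and 22 of the 28. TRAV1 chains thus reached from near TRAC to beyond the middle of the cluster, without any chain on the segments nearest to the TRAV cluster.

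TRAV2 (chr14:52567198-52568051) had 6 chains in WT, on TRAJ4, TRAJ17, TRAJ21, TRAJ30, TRAJ34 and TRAJ45. Its 15 Btla-/- chains lay between TRAJ7 and TRAJ31, with a median of 21, and 4 of them used TRAJ9. TRAJ1 to TRAJ30 took 4 of 6 WT chains and 14 of 15 Btla-/- chains. The ranges of the libraries overlapped, and 6 chains fix its WT share only between 22.3% and 95.7%.

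TRAV17 (chr14:53806639-53807115) lies 350.2 kb from TRAJ58 and is the first of the proximal genes along the locus. Its 27 WT chains ran from TRAJ31 to TRAJ58 with a median of 50, and its 14 Btla-/- chains from TRAJ26 to TRAJ58 with a median of 49. None of the 27 and 1 of the 14 used TRAJ1 to TRAJ30. For 0 of 27 the exact interval reaches up to 12.8%.

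TRAV18 (chr14:53831105-53831827) was seen once, on TRAJ56 in WT, which is 0.0537% of the TRA chains of that library (0.00136 to 0.299). It had 0 of 1920 chains in Btla-/-, which allows a share of up to 0.156%, so no difference between the libraries was detectable for it.

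TRAV19 (chr14:53845234-53845827) had 9 WT chains, on TRAJ34, TRAJ35, TRAJ48, TRAJ52, TRAJ53, TRAJ56 and TRAJ58, the segments TRAJ48 and TRAJ58 with 2 chains each. The 19 Btla-/- chains ran from TRAJ31 to TRAJ57 with a median of 49, against 52 in WT. No TRAV19 chain of either library used TRAJ1 to TRAJ30.

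TRAV21-DV12 (chr14:53875984-53876752), at 280.5 kb from TRAJ58, was the nearest TRAV gene with any chain. It was also the most used of the 6 genes, with 46 WT chains between TRAJ7 and TRAJ58 (median 53) and 32 Btla-/- chains between TRAJ23 and TRAJ58 (median 49.5). A single chain in each library used TRAJ1 to TRAJ30, on TRAJ7 in WT and on TRAJ23 in Btla-/-. TRAV17, TRAV19 and TRAV21-DV12 thus lay nearly wholly above TRAJ30, with 1 TRAV17 and 2 TRAV21-DV12 chains below it, and the single TRAV18 chain shows no pattern.

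At the level of single segments, distal chains used 23 TRAJ segments and proximal chains 23, with 9 in common, out of 43 segments seen in all TRA chains. The common segments lay between TRAJ7 and TRAJ50. TRAJ21 took 6 of the 63 distal chains, TRAJ12 took 5 and TRAJ9 took 4, as many as TRAJ13, TRAJ23 and TRAJ26 each took. No segment dominated the distal chains. TRAJ57 took 25 of the 148 proximal chains, TRAJ58 took 17 and TRAJ56 took 13.

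The 3 segments nearest to the TRAV cluster, TRAJ56 to TRAJ58, were used more by the proximal chains than by the other TRAV genes pooled. They took 35 of 83 proximal chains in WT (42.2%, 31.4 to 53.5) and 20 of 65 in Btla-/- (30.8%, 19.9 to 43.4). Chains of the other TRAV genes used them in 5.80% in WT (4.75 to 6.995) and 5.63% in Btla-/- (4.61 to 6.79). No distal chain used them, in 0 of 20 and 0 of 43 chains, for which the exact intervals reach up to 16.8% and 8.22%. Among the other TRAV genes within 500 kb of TRAJ58, which lie next to the proximal genes, the share was 13.4% in WT (9.48 to 18.1) and 13.1% in Btla-/- (8.76 to 18.6). The proximal chains exceeded these neighbours by 28.8 percentage points in WT (17.7 to 40.1) and by 17.6 percentage points in Btla-/- (6.37 to 30.3). Single neighbours were not all lower, since TRAV13-4-DV7 had 7 of 18 chains on these segments in Btla-/- (38.9%, 17.3 to 64.3) and TRAV14-3 had 8 of 27 in WT (29.6%, 13.8 to 50.2). TRAJ57 alone took 20.5% of WT proximal chains and 12.3% of Btla-/- proximal chains.

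At the other end of the TRAJ cluster, TRAJ1 to TRAJ10 took 2 of 20 distal chains in WT (10.0%, 1.23 to 31.7) and 8 of 43 in Btla-/- (18.6%, 8.39 to 33.4). Chains of all other TRAV genes gave 13.5% and 20.8% there. The distal genes were thus not seen to exceed the rest of the repertoire at the segments closest to TRAC. Their largest share fell instead on TRAJ21 to TRAJ30, with 9 of 20 WT chains (45.0%) and 15 of 43 Btla-/- chains (34.9%). Proximal chains fell mostly on TRAJ41 and above, with 83.1% in WT and 81.5% in Btla-/-.

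Both groups also differed from the remaining TRAV genes, whose chains used TRAJ1 to TRAJ30 in 50.5% in WT (48.2 to 52.9) and 59.3% in Btla-/- (57.0 to 61.6). Distal chains were above these by 29.5 percentage points in WT (7.73 to 41.6) and by 24.4 percentage points in Btla-/- (10.5 to 32.9). Proximal chains were below them, with differences of -49.3 percentage points in WT (-51.9 to -43.5) and -56.2 percentage points in Btla-/- (-59.4 to -48.4).

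Along the locus, the TRAJ1 to TRAJ30 share did not fall evenly from the distal to the proximal end. Distance is given from the end of each TRAV gene to TRAJ58. Other TRAV genes lying 250 to 500 kb away, next to the proximal genes, had a share of 10.3% in WT (6.90 to 14.6) and 9.60% in Btla-/- (5.88 to 14.6). The share rose to 40.04% and 46.6% at 500 to 750 kb and to 72.5% and 75.4% at 750 to 1000 kb. Beyond that it no longer rose steadily, with 66.7% and 75.6% at 1000 to 1250 kb, and 50.8% and 65.9% at 1250 to 1500 kb. The other genes beside TRAV1 and TRAV2, at 1500 to 1750 kb, had 80.0% in WT (61.4 to 92.3) and 82.5% in Btla-/- (67.2 to 92.7), close to the distal genes themselves. The proximal genes thus stood at the low end of a steep stretch, and the distal genes at the end of a long high stretch with a dip. Much of the dip rests on TRAV7D-2 (53 WT and 55 Btla-/- chains) and TRAV6D-6 (63 and 66), of 195 and 249 chains there. A D in the name marks a copy in a duplicated block, and such copies can be exchanged when a V gene is called. TRAV7-2 and TRAV6-6, nearer to TRAJ, had 0 chains, so the positions behind the dip are uncertain.

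**Figure D2:**
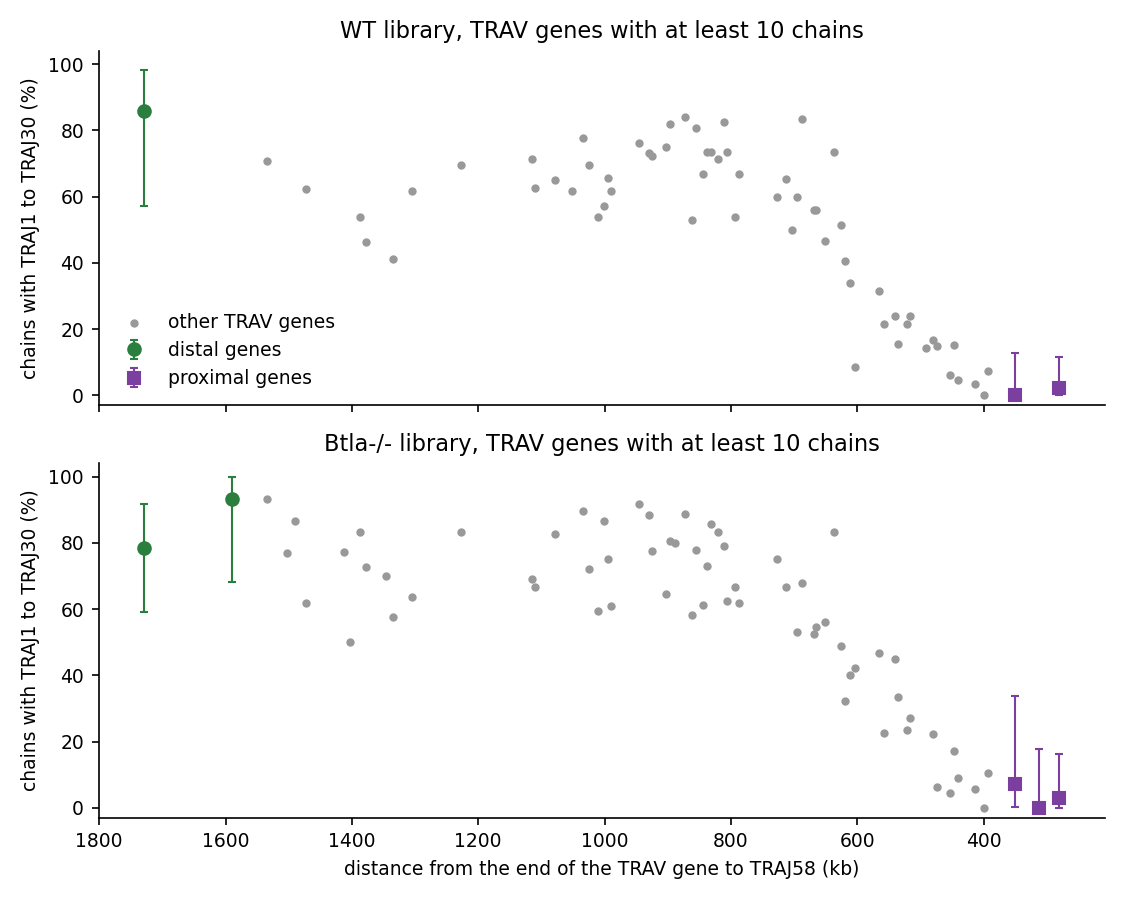
Share of chains joined to TRAJ1 to TRAJ30 (vertical axis, percent) against the distance of the TRAV gene to TRAJ58 (horizontal axis, kb, distal genes on the left), for each TRAV gene with at least 10 chains in that library. Bars on the distal and proximal genes are exact 95% intervals from counting error, and grey points are the other TRAV genes. The proximal genes lie at 7.14% or less, and the distal genes lie at 78.6% or more among grey points of similar height.

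Across TRAV genes with at least 10 chains, the gene start and the TRAJ1 to TRAJ30 share had a Spearman rho of -0.68 in WT (64 genes) and -0.76 in Btla-/- (69 genes). Without the 6 genes described here rho was -0.63 (61 genes) and -0.72 (64 genes). Genes of a library share its cells and depth and are not replicates, and the positions of duplicated copies are uncertain, so these values are descriptions. TRAV1 had the highest share of the 64 genes in WT but ranked 52 from the lowest of 69 in Btla-/-, where TRAV2 ranked 68. TRAV17 and TRAV21-DV12 ranked 2 and 3 from the lowest in WT, and in Btla-/- TRAV19 ranked 1, TRAV21-DV12 ranked 3 and TRAV17 ranked 7. With 14 to 46 chains for these genes, neighbours in these orders had intervals that overlapped.

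Genes beside these 6 on the locus had a like use of TRAJ. Next to TRAV2, TRAV3-1 had 0 chains in WT and 3 in Btla-/-, and TRAV5-1 used TRAJ1 to TRAJ30 in 70.6% of 17 WT chains and 93.3% of 15 Btla-/- chains. Upstream of TRAV17, TRAV14-3 had 7.41% of 27 and 10.5% of 19 chains there, and TRAV13-4-DV7 had 0 of 11 and 0 of 18.

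Likeness was measured as the total variation distance between shares over 5 TRAJ windows in both libraries pooled, which is 0 for equal shares and 1 for no overlap, over 51 other TRAV genes with at least 30 chains. By this measure the distal and the proximal chains were 0.805 apart. The genes most like the distal ones were TRAV14N-2 at 0.11, TRAV7D-4 at 0.13 and TRAV16N at 0.13. TRAV14N-2 starts 831.7 kb and TRAV16N 923.1 kb downstream of the start of TRAV1. The genes most like the proximal ones were TRAV16 at 0.0371, TRAV7-6 at 0.0713 and TRAV14-3 at 0.18. These lie 413.6 kb, 440.0 kb and 393.6 kb from TRAJ58, just upstream of the proximal genes. Names with D or N mark copies in duplicated blocks of the cluster, and because near-identical copies can be exchanged when a V gene is called, the positions of such genes are uncertain.

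Between the libraries, the TRAJ1 to TRAJ30 share of distal chains differed by 3.72 percentage points (Btla-/- minus WT, interval -14.4 to 26.8) and that of proximal chains by 1.87 percentage points (-3.89 to 9.40). Chains of the other TRAV genes differed by 8.79 percentage points (5.53 to 12.0). The intervals of the distal and the proximal chains thus include 0, and they also include the value of the other genes, so that at this depth a shift of that size could not be told from none. In total variation over the 5 windows, WT and Btla-/- were 0.138 apart for distal chains (20 and 43). They were 0.0308 apart for proximal (83 and 65) and 0.103 for other chains (1759 and 1812). Counting error alone makes this distance larger where chains are few, so the values of the groups cannot be ranked against each other.

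The share of TRA chains that used the distal genes was higher in the Btla-/- library. TRAV1 made up 0.752% of WT TRA chains (14 chains, 0.412 to 1.26) and 1.46% of Btla-/- TRA chains (28 chains, 0.971 to 2.10). TRAV2 made up 0.322% in WT (6 chains, 0.118 to 0.700) and 0.781% in Btla-/- (15 chains, 0.438 to 1.29). Both genes had the higher share in Btla-/-, though the exact intervals of each gene overlapped. Taken as a group, the distal genes took 1.07% of WT chains (0.657 to 1.65) and 2.24% of Btla-/- chains (1.63 to 3.005), a difference of 1.17 percentage points (0.351 to 2.02).

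The proximal genes did not share 1 direction. TRAV17 had 1.45% of WT chains (27 chains, 0.958 to 2.10) and 0.729% of Btla-/- chains (14 chains, 0.399 to 1.22). TRAV21-DV12 had 2.47% (46 chains, 1.81 to 3.28) and 1.67% (32 chains, 1.14 to 2.34), again lower in Btla-/-. TRAV19 went the other way, with 0.483% (9 chains, 0.221 to 0.916) and 0.990% (19 chains, 0.597 to 1.54). As a group the proximal genes had 4.46% (3.57 to 5.50) and 3.39% (2.62 to 4.29), a difference of -1.07 percentage points whose interval, -2.33 to 0.169, includes 0.

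Of the single genes, the interval of the difference excluded 0 for TRAV1, at 0.706 percentage points (0.0308 to 1.42), and for TRAV17, at -0.721 percentage points (-1.44 to -0.0537). Over all 81 TRAV genes with at least 10 chains over both libraries, the interval excluded 0 for 13, or 16%, and TRAV1 and TRAV17 were 2 of the 5 distal and proximal genes among the 81. By the stricter rule that the exact intervals of the libraries lie apart, 0 of the same 5 genes passed and 1 of the 81, or 1.23%.

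**Figure D3:**
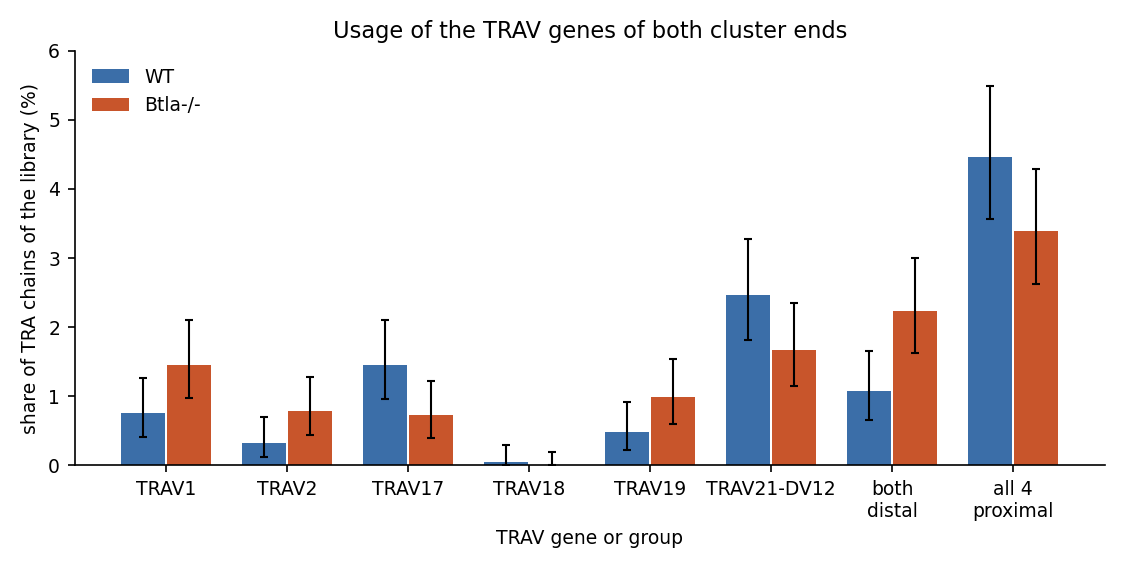
Share of all TRA chains of a library (vertical axis, percent) that used each TRAV gene, and both distal or all 4 proximal genes together, with exact 95% intervals from counting error in 1 library per genotype. The bars of TRAV1, TRAV2 and TRAV19 are higher in Btla-/- and those of TRAV17 and TRAV21-DV12 higher in WT, with intervals that overlap in every pair.

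Counted against each other, distal chains were 20 of the 103 end chains in WT (19.4%, 12.3 to 28.4) and 43 of 108 in Btla-/- (39.8%, 30.5 to 49.7). The difference of 20.4 percentage points had an interval of 8.09 to 31.8. This ratio was chosen after the counts of the genes had been seen, so its interval is a description. When contigs, cells or any 1 of the 6 genes were left out, the difference lay between 12.0 and 27.0 percentage points. The highest value came without TRAV19, the proximal gene with the higher share in Btla-/-. These alternatives reuse the same chains and give no separate evidence.

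Pooled by distance, genes lying near the distal and proximal ones differed in the same direction as each pooled group, but single genes did not all do so. Other TRAV genes at 1500 to 1750 kb from TRAJ58 took 1.61% of WT chains (1.09 to 2.29) and 2.08% of Btla-/- chains (1.49 to 2.83), with overlapping intervals. Of these, TRAV3-1 and TRAV7-1 were higher in Btla-/-, and TRAV5-1 and TRAV6-1 were lower. Other TRAV genes at 250 to 500 kb took 14.1% (12.5 to 15.7) and 10.3% (8.99 to 11.8). Each of them that had chains was lower in Btla-/- except TRAV13-4-DV7, at 0.591% in WT and 0.938% in Btla-/-. Over the 81 genes, gene start and the log2 ratio of usage, Btla-/- over WT, had a Spearman rho of -0.47, so genes nearer to the 5′ end tended to have the higher ratio in these 2 libraries. The positions of duplicated copies are uncertain here too. With 1 library each, genotype and library cannot be told apart.

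Proximal chains had the longer CDR3. Their mean length was 14.6 ± 1.40 amino acids in WT (SD over 83 chains) and 14.5 ± 1.55 in Btla-/- (65 chains). Distal chains had 13.7 ± 1.59 (20 chains) and 13.9 ± 1.44 (43 chains), near the 13.7 ± 1.47 and 13.7 ± 1.49 of the other TRAV genes. All these groups overlapped widely from chain to chain.

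TRAV21-DV12 had the longest mean among the proximal genes in WT, 15.1 ± 1.29 amino acids, and 14.7 ± 1.54 in Btla-/-. TRAV17 had 14.2 ± 1.33 in WT and 14.9 ± 1.59 in Btla-/-, so the order of these genes differed between the libraries. TRAV19 had 13.8 ± 1.39 and 14.1 ± 1.51, close to the other TRAV genes. Without TRAV21-DV12 the WT proximal mean was 14.1.

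To see which bases made up the CDR3, each one was matched from both sides to the germline TRAV end and the germline TRAJ start, and the bases matched by neither were counted. Proximal chains had on average 2.98 such bases in WT and 3.45 in Btla-/-, distal chains 3.45 and 3.21, and other chains 3.13 and 3.002. The longer proximal CDR3 thus came with no larger number of unmatched bases in WT. The germline TRAJ part was longer, with a mean of 31.6 bases in WT and 31.3 in Btla-/- for the segments joined by proximal chains, against 29.1 and 28.6 for those joined by distal chains and 29.7 and 29.9 for others. The germline TRAV part had 14.95 and 14.69 bases for proximal, 14.6 and 14.7 for distal, and 13.7 and 13.6 for other chains.

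**Figure D4:**
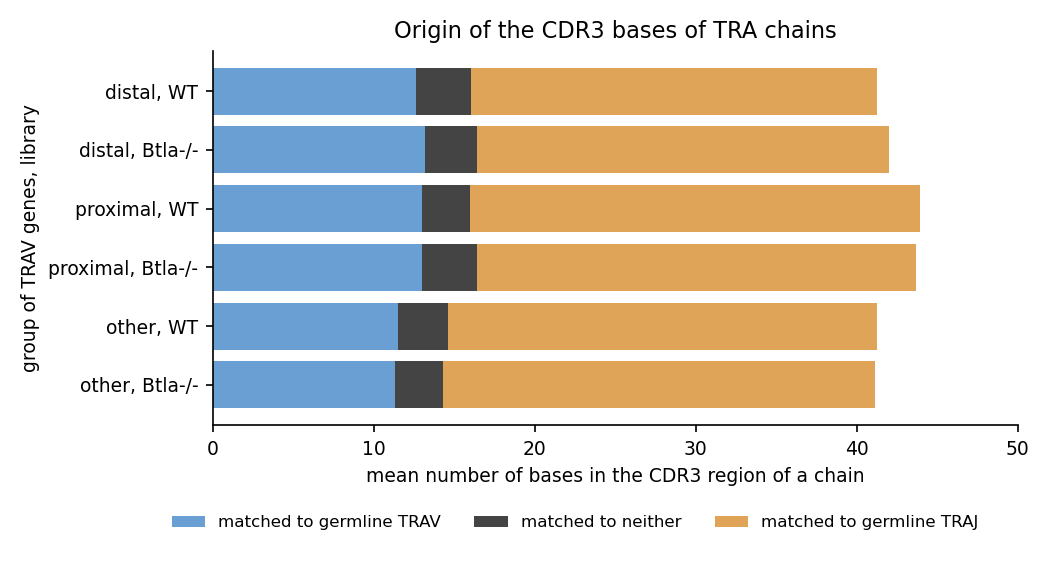
Mean number of CDR3 bases per chain (horizontal axis) that matched the germline TRAV end, the germline TRAJ start or neither, for distal, proximal and other TRAV genes in each library. A base that both ends could have given is counted for both. The TRAJ part is longest in the proximal chains, and the part matched by neither has between 2.98 and 3.45 bases in every group.

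Among chains on TRAJ41 and above only, proximal CDR3s had a mean of 14.8 ± 1.37 amino acids in WT (69 chains) and 14.7 ± 1.44 in Btla-/- (53 chains). Chains of the other TRAV genes on the same segments had 14.1 ± 1.49 and 14.1 ± 1.51, so the proximal mean was the higher one there too. A CDR3 with no unmatched base was found in 1 of 20 distal chains in WT and 7 of 43 in Btla-/-, and in 9 of 83 and 10 of 65 proximal chains. Other TRAV genes had such chains in 13.5% in WT and 13.4% in Btla-/-, which lies within the exact intervals of all these shares.

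TRAV1 joined to TRAJ33 is the alpha chain of mucosal-associated invariant T (MAIT) cells, which recognise vitamin B metabolites on MR1. It was found in 2 WT chains (0.107% of TRA chains, 0.0130 to 0.387) and 1 Btla-/- chain (0.0521%, 0.00132 to 0.290). All 3 had a CDR3 of 12 amino acids. The CDR3 sequences are shown because 1 of them occurred in both libraries, with capitals for bases matched by neither germline end.
TRAV1 with TRAJ33, WT and Btla-/-: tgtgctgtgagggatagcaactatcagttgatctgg
TRAV1 with TRAJ33, WT: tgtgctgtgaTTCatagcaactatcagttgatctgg
The first, with 0 unmatched bases, was paired with TRBV19 in both libraries, with TRBJ2-3 in WT and TRBJ2-1 in Btla-/-, so these were different cells by their beta chain. The second had 3 unmatched bases and was paired with TRBV12-1 and TRBJ2-5. Whether these were MAIT cells was not tested, since the libraries hold no other transcripts.

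Of 207 distinct chains of the 6 genes, this TRAV1 chain was the 1 found in both libraries, whereas 13 of 3447 distinct chains of other TRAV genes were. Within a library, 3 chains occurred in 2 cells each: TRAV1 with TRAJ13 in Btla-/-, and TRAV17 with TRAJ50 and TRAV17 with TRAJ57 in WT. The cells with TRAV17 and TRAJ57 also shared 1 beta chain, and those with TRAV17 and TRAJ50 did not. Among distinct chains of other TRAV genes, 40 of 1716 in WT and 62 of 1744 in Btla-/- occurred in more than 1 cell. Chains of both cluster ends were thus nearly all single, as were those of the other genes.

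Some T cells carry a second TRA chain, which allows the joining on the other chromosome of the same cell to be set beside the first. Any TRA chain was found in only 1704 of 4040 WT cells and 1798 of 5077 Btla-/- cells, so second chains may often have been missed. Cells with a distal chain had a second TRA chain in 3 of 20 cases in WT and 8 of 43 in Btla-/-. Cells with a proximal chain had one in 12 of 82 and 6 of 65. Cells with a chain of any other TRAV gene had one in 9.72% in WT (8.31 to 11.3) and 7.16% in Btla-/- (5.98 to 8.49). These include the cells in which that chain lay beside a distal or proximal chain, so the groups of cells overlap.

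Next to a proximal chain, the other TRA chain lay above TRAJ30 in 13 of 13 WT cases and 3 of 6 Btla-/- cases. The WT cases included 1 cell with a pair of TRAV21-DV12 chains, on TRAJ48 and TRAJ56, which counts for both of its chains. Next to a distal chain, the other chain lay above TRAJ30 in 1 of 3 WT cases and 0 of 8 Btla-/- cases. Over both libraries this was 84.2% of 19 (60.4 to 96.6) for proximal and 9.09% of 11 (0.230 to 41.3) for distal chains. The 19 proximal cases came from 18 cells and from libraries with unlike shares, so their pooled interval is a description. For all other chains of cells with 2 or more TRA chains, the share above TRAJ30 was 47.0% in WT (41.2 to 52.8) and 40.4% in Btla-/- (34.0 to 47.1). In WT proximal and Btla-/- distal cases, the second chain thus lay on the side of the TRAJ cluster that its partner's group mostly used. Btla-/- proximal cases were evenly split, at 3 of 6, with an interval (11.8 to 88.2) that included the 40.4% of all other chains. The 3 WT distal cases were too few to tell.

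**Figure D5:**
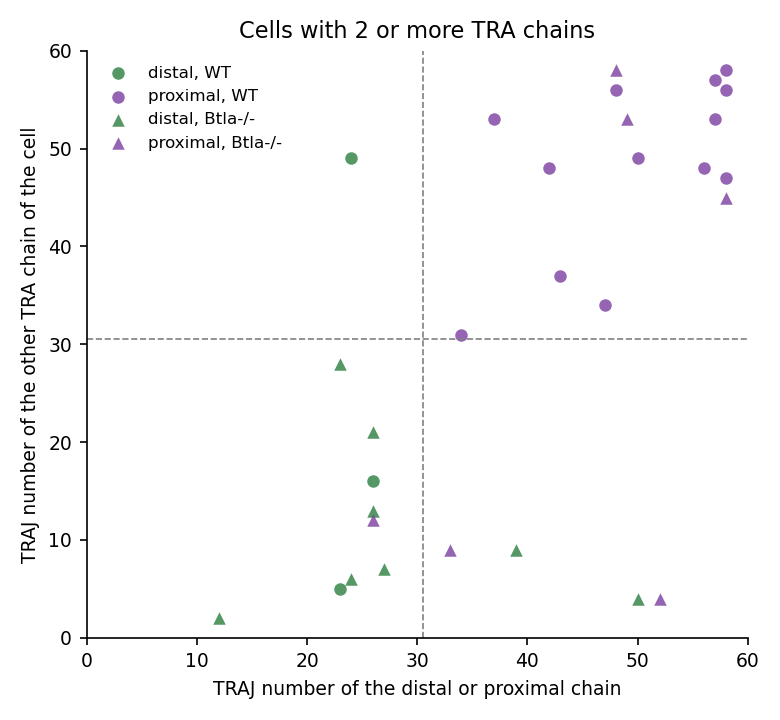
TRAJ number of the other TRA chain of a cell (vertical axis) against that of its distal or proximal chain (horizontal axis), for cells with 2 or more TRA chains. Each point is a pair of chains, dashed lines separate TRAJ30 from TRAJ31, and by the TRAJ number of the other chain 3 Btla-/- proximal pairs and 1 WT distal pair lie away from their group.

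Of the cells in that comparison, 2 of 11 with a distal and 2 of 18 with a proximal chain also had more than 1 beta chain, as a droplet with 2 cells can give. The 3 Btla-/- proximal cells whose other chain lay at TRAJ30 or below had it on TRAJ12, TRAJ9 and TRAJ4, and 2 of these 3 were the proximal cells with more than 1 beta chain. The part of such droplets in the result was not tested.

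The beta chains paired with both groups were varied. Distal chains were most often paired with TRBV12 (5 of 20 beta chains in WT and 5 of 47 in Btla-/-) and TRBV5 (1 and 7). TRBV10 (3 and 3), TRBV13 (1 and 5) and TRBV2 (1 and 5) tied for the next place with 6 each. The joint call TRBV12-2+TRBV13-2 (2 and 3) was kept apart and is counted in neither TRBV12 nor TRBV13. With so few beta chains the order is not settled, and the exact intervals of the distal TRBV12 and TRBV5 shares included the shares beside other TRAV genes, which were 11.1% and 9.66% for TRBV12 and 7.82% and 6.39% for TRBV5.

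Proximal chains were most often paired with TRBV13, TRBV2 and TRBV3, with the joint call TRBV12-2+TRBV13-2 again kept apart. That joint call gave 6 of 87 beta chains in WT and 9 of 71 in Btla-/-. TRBV13 gave 12 of 87 beta chains in WT (13.8%) and 9 of 71 in Btla-/- (12.7%), against 13.5% and 12.6% beside other TRAV genes. TRBV2 gave 9.20% in WT (4.05 to 17.3) and 12.7% in Btla-/- (5.96 to 22.7), against 4.73% and 4.55%. TRBV3 gave 14.9% in WT (8.20 to 24.2) but 4.23% in Btla-/- (0.880 to 11.9), against 5.84% and 6.83%. The proximal intervals thus lay above the other genes' shares for TRBV3 in WT and for TRBV2 in Btla-/-, and for neither in both libraries. These subgroups were picked as the most used ones, so their values are descriptions. They were not the only ones to depart. In WT, TRBV16 gave 11.5% of proximal beta chains (5.65 to 20.1) against 5.60%, and TRBV5 was not seen, against 7.82%.

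The TRBJ2 cluster gave 55.0% of the beta chains beside distal chains in WT (31.5 to 76.9) and 72.3% in Btla-/- (57.4 to 84.4), against 59.9% and 60.7% beside other TRAV genes. Beside proximal chains it gave 60.9% and 63.4%. The intervals of both groups included the TRBJ2 shares of the other genes.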

How the data were processed

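TCR transcripts of thymic CD4 single positive T cells were sequenced with the 10x Genomics V(D)J workflow, 1 library per genotype. The authors assembled contigs with Cell Ranger 7.2.0 on GRCm38, per the labels. The deposited contig tables list called cells only, and give for each contig its reads and UMIs as raw, not normalized counts. The WT library had 6003 contigs in 4040 cells (80347 UMIs) and the Btla-/- library 7101 contigs in 5077 cells (75456 UMIs). All other deposited tables (CDR3 lengths, clone proportions and V gene percentages, made by the authors) were not used here.

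Every TRA contig was counted as 1 chain, and no doublets were removed. Exact (Clopper-Pearson) and Newcombe intervals at 95% were computed in Python 3.11.15 with scipy 1.17.1 and statsmodels 0.14.6. A count of 0 was given a limit of 3 counts where it is named as allowed. UMIs set which chains were detected, so rare genes such as TRAV18 are limited by depth. Positions and germline sequences came from the GENCODE gene annotation and the RefSeq sequence of GRCm38. Germline matches were tested on simulated data. The members and gene lists, and the boundary at TRAJ30, were chosen with earlier results of these data known. Named beside the members were the 3 most used TRAJ segments and TRBV subgroups of each group, the 3 TRAV genes most alike and the neighbours on the locus. Alternatives were at least 3 UMIs per contig, cells with 1 TRA and 1 TRB chain, distinct chains, shared barcodes left out, the TRA contig with most reads, each gene left out, TRAV1 with TRAJ33 left out and boundaries at TRAJ20 and TRAJ40.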

Additional observations from a re-analysis of the deposited data

How the results depend on the processing

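Of 197 values recomputed under the alternatives, 171 counted as unchanged, 26 moved outside the counting interval of the main value and 0 of the called differences changed direction. Unchanged meant inside that interval, except for differences recomputed as median TRAJ numbers, which were judged by direction alone. Distal exceeded proximal chains in TRAJ1 to TRAJ30 under every alternative run, by 65.5 to 89.8 percentage points in WT and 75.5 to 90.3 in Btla-/- with the boundary at TRAJ30. With the boundary at TRAJ20 the distal share was 35.0% in WT and 48.8% in Btla-/-, the proximal share in Btla-/- was 0, and the difference was 33.8 and 48.8. With TRAJ40 the distal shares were 95% and 95.3% and the proximal shares 16.9% and 18.5%. The Btla-/- minus WT difference of this share ranged from -7.14 to 26.7 for distal and from -1.85 to 3.03 for proximal chains, with intervals that included 0 throughout. With at least 3 UMIs the proximal share in Btla-/- was 0.

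Leaving out a gene moved usage by construction. Without TRAV1, distal usage was 0.322% in WT and 0.781% in Btla-/-, the Btla-/- distal share of TRAJ1 to TRAJ30 was 93.3% and its difference from proximal 90.3, and distal chains were 6.74% and 18.8% of end chains. Without TRAV2, Btla-/- distal usage was 1.46% and 30.1% of end chains. Proximal usage was 3.01% in WT without TRAV17 and 2.40% in Btla-/- without TRAV19. Without TRAV21-DV12 it was 1.99% and 1.72%, the WT share of TRAJ1 to TRAJ30 was 0, the WT mean CDR3 14.1 amino acids, and distal chains 35.1% and 56.6% of end chains. Single genes have 0 to 46 chains a library, which sets the width of their intervals. No paired analysis was possible because each genotype had 1 library, so the groups share fewer than 2 replicate numbers.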
